A study of Mus musculus with 35 samples.

Results

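Kdm5a, Kdm5c, Kdm1a and Kdm1b are the genes for histone H3 lysine 4 (H3K4) demethylases that share their substrate residue with KDM5B, the enzyme whose mRNA was injected in this experiment. They were chosen by name, as the rows of the gene count table with these 4 symbols, and make up 4 of its 24480 genes. The samples were 35 RNA-seq libraries of wild-type C57BL/6NRj mouse embryos: 10 Ctrl water zygotes, 10 Kdm5b zygotes, 9 Ctrl water 2C samples and 6 Kdm5b 2C samples. Kdm5b embryos had received in vitro transcribed Kdm5b-yfp mRNA at about 1150 ng/µl in the cytoplasm, and Ctrl water embryos nuclease-free water. Zygotes were injected at the zygote stage, and 2C embryos in both blastomeres after division, so the stages are separate sets of injections. Zygotes were collected 17 h after ovulation, 2C samples 5.5 to 8 h after division, and all of them 5 to 6 h after injection. Each zygote tube held 1 zygote. Of the Ctrl water 2C tubes, 6 held a single intact embryo, 1 held blastomeres of 2 embryos and 2 held blastomeres of 3 embryos, while 5 Kdm5b 2C tubes held a single intact embryo and 1 held blastomeres of 3 embryos. The 2C samples came from cryopreserved and thawed zygotes, and libraries of the stages were made on different days, so stage, freezing and library day cannot be told apart. Since the control was water, KDM5B and the load of injected mRNA as such cannot be told apart either, and embryos with little or no YFP signal had been left out. No label ties a tube to a particular female, so p-values measure the spread between these tubes.

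Methyl groups on H3K4 are removed by enzymes of chemically distinct families. The KDM5 enzymes carry a JmjC domain, use iron and 2-oxoglutarate, and act on tri- and dimethylated H3K4. KDM1A (LSD1) and KDM1B (LSD2) are flavin-dependent amine oxidases, which act on mono- and dimethylated H3K4 and cannot use the trimethylated form. The mouse oocyte carries broad H3K4me3 domains that are lost around embryonic genome activation (EGA) at the 2C stage. KDM1A is needed for development past the 2C stage when its maternal store is removed, and KDM1B is needed in the growing oocyte for DNA methylation at imprinted genes.

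On GRCm38, Kdm5a covers chromosome 6 from position 120364099 to 120444574 on the plus strand, with 28 exons that add up to 10969 bases in the RefSeq annotation used for counting. Kdm5c covers chromosome X from 152233227 to 152279102 on the plus strand, with 26 exons of 11018 bases in all. Kdm1a covers chromosome 4 from 136550533 to 136602723 on the minus strand, with 19 exons of 3015 bases in all. Kdm1b covers chromosome 13 from 47043499 to 47085279 on the plus strand, with 21 exons of 4987 bases in all.

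Kdm5a and Kdm5c are paralogs of Kdm5b, whose fragments took up 2.30% to 10.4% of the gene counts in Kdm5b zygotes and 8.27% to 15.8% in Kdm5b 2C samples. The coding sequence of Kdm5b (4635 bases, GENCODE transcript on GRCm38) was therefore compared, without gaps, with that of each member in windows of 91 bases, the length of a trimmed read. The closest windows are shown because they are where a Kdm5b read would come nearest to a paralog. Each runs from exon 9 into exon 10 of its transcript, 5′ to 3′ on the plus strand, with the bases that differ within the pair in capitals. The Kdm5b and Kdm5a windows span chr1:134600724-134602510 and chr6:120389020-120389613, intron included.

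Kdm5b: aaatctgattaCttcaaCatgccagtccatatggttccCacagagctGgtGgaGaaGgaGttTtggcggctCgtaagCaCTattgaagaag
Kdm5a: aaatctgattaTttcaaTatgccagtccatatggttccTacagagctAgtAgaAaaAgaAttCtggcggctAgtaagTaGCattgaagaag

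The Kdm5b and Kdm5c windows span chr1:134600700-134602486 and chrX:152248494-152248698.

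Kdm5b: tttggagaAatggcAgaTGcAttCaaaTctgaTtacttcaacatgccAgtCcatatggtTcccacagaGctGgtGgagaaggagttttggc
Kdm5c: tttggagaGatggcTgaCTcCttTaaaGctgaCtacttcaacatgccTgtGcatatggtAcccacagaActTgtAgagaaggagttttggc

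The first pair differed at 13 of 91 bases and the second at 14 of 91. The authors' alignment allowed at most 5 mismatches. Of the 4545 windows of Kdm5b, 0 came within 5 mismatches of Kdm5a, and 0 of Kdm5c. The longest run of identical bases shared with Kdm5b was 20 bases in Kdm5a and 32 in Kdm5c. Kdm1a and Kdm1b are not related to Kdm5b in sequence, and their closest windows differed from it at 45 and 43 of 91 bases. Alignments that clip part of a read were not examined.

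Levels are given in TPM, the count per exon length, set to a common sum for every library, with Kdm5b left out beforehand so that the injected mRNA did not take up part of the total. TPM is a share of the RNA of a sample, and without added standards fewer cells and less RNA per cell cannot be told apart. Gene counts added up to 8705584 to 17797581 per sample. Transcripts that mark the 2C stage, such as those of the Zscan4 cluster, added up to 2.44 to 36.0 CPM (counts scaled by the library total in the same way, but not by length) in zygotes and 162 to 794 CPM in 2C samples, and 11 oocyte genes to 6589 to 8560 and 4767 to 6298 CPM. The 11 cumulus cell markers added up to 18.8 to 53.3 CPM with overlapping ranges in all groups. This sum was not shared evenly by the list. In Ctrl water zygotes Cyp19a1 had 239 to 458 counts per sample, Kitl 42 to 121 and Has2 3 to 48. The remaining cumulus markers had at most 17 counts in any Ctrl water zygote.

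In Ctrl water zygotes the flavin enzymes were the most abundant members. Kdm1b lay at 162, 180 and 263 TPM in the lowest, median and highest of the 10 samples. Kdm1a lay at 120, 137 and 174 TPM. Kdm5c lay at 19.2, 20.4 and 25.0 TPM, below every value of both flavin enzymes. Kdm5a lay at 1.07, 1.60 and 3.12 TPM, from counts of 68 to 159, and no sample reached the lowest value of Kdm5c. KDM5A was first found as a partner of the retinoblastoma protein, and KDM5C is encoded on the X chromosome by a gene that escapes X inactivation.

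Kdm1b exceeded Kdm1a in 10 of 10 Ctrl water zygotes, by 1.36-fold per length on average (geometric mean of within-sample ratios). Kdm1a exceeded Kdm5c by 6.72-fold, and Kdm5c exceeded Kdm5a by 12.7-fold. Each step had p = 0.00195, the smallest that 10 samples allow, and an adjusted p = 0.00469 over the 12 neighbour pairs of all groups (two-sided exact sign-flip permutation test). The order was the same in the other groups. Kdm1b exceeded Kdm1a by 1.45-fold in Kdm5b zygotes (9 of 10 samples, exact permutation test, adjusted p = 0.00521), 1.86-fold in Ctrl water 2C samples (9 of 9) and 2.65-fold in Kdm5b 2C samples (6 of 6). In Kdm5b 2C samples all 3 steps had p = 0.0312 in the exact permutation test, the smallest that 6 samples allow. The step from Kdm1a to Kdm5c depended on the exon length in 2C samples. On counts that are not divided by length, Kdm1a exceeded Kdm5c by only 0.10 on the log2 scale in Ctrl water 2C samples (adjusted p = 0.602, exact permutation test), and in Kdm5b 2C samples Kdm1a lay 0.31 below Kdm5c (log2 difference -0.31, adjusted p = 0.205, exact permutation test). The coding part of Kdm5c is 4665 bases of the 11018 that were counted, and its last exon alone is 6394 bases.

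**Figure D1:**
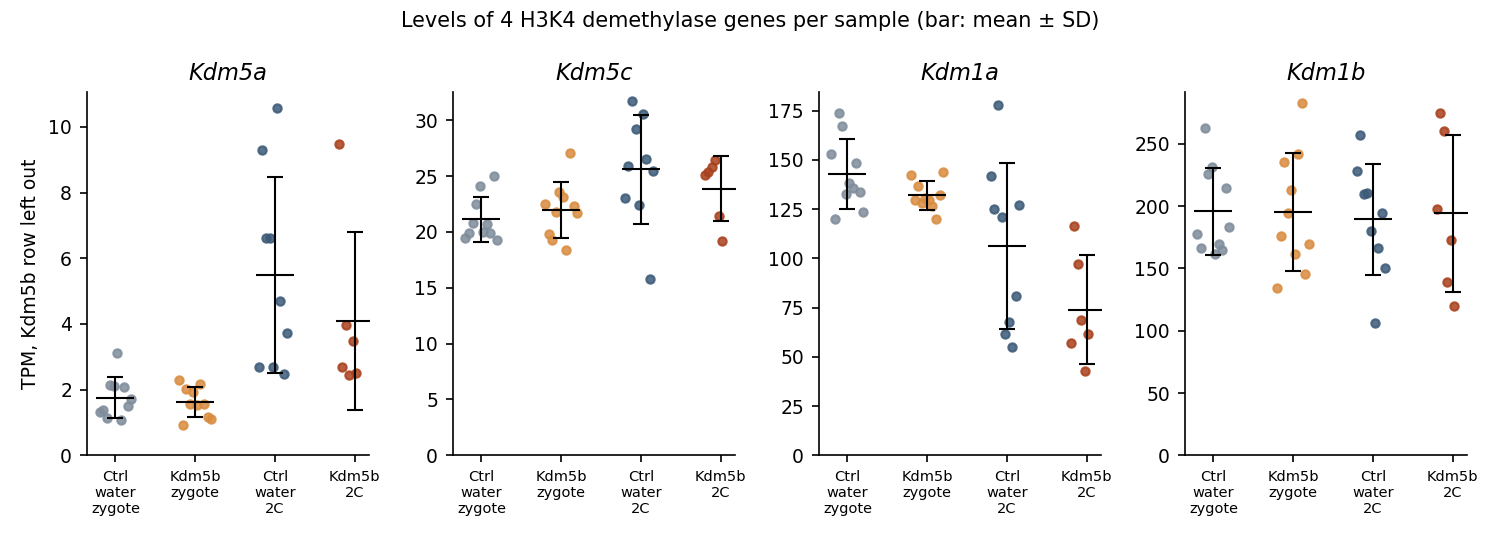
TPM of Kdm5a, Kdm5c, Kdm1a and Kdm1b in each of the 35 samples, by group, each panel with its own axis from 0, with horizontal marks at the mean and error bars of 1 SD. Kdm5a was higher and more scattered in 2C samples than in zygotes, Kdm1a spread from 43.0 to 178 TPM in 2C samples, and Kdm1b overlapped between all groups.

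Among 22 histone demethylase genes in the table, these 4 took very different places. By median TPM in Ctrl water zygotes, Kdm1b ranked 5, Kdm1a 8, Kdm5c 12 and Kdm5a 18. In Ctrl water 2C samples the ranks were 5, 7, 12 and 17. The most abundant was Kdm2b, a JmjC enzyme of H3K36 that recruits Polycomb complexes to CpG islands, with a median of 637 TPM in zygotes and 303 TPM in 2C samples. The H3K27 demethylase gene Kdm6b followed at 308 and 272 TPM. Kdm5d, the Y-linked relative of Kdm5c, had between 0 and 14 counts per sample. The embryo's own Kdm5b, which can only be read in water-injected samples, had a median of 2.91 TPM in zygotes (1.31 to 6.52) and 25.0 TPM in 2C samples (16.3 to 88.2). Its zygote median lay between those of Kdm5a and Kdm5c, and its 2C median next to that of Kdm5c at 25.9 TPM.

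**Figure D2:**
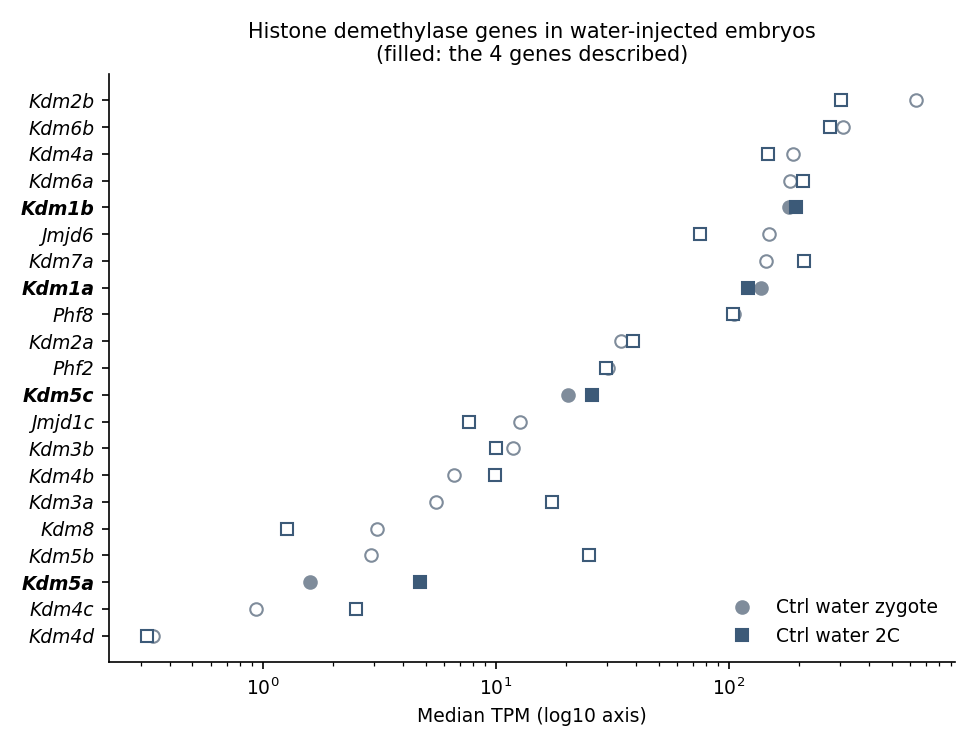
Median TPM on a log10 axis of 20 of the 22 demethylase genes, and of Kdm5b, in the Ctrl water zygotes (circles, n = 10) and Ctrl water 2C samples (squares, n = 9), with filled marks for Kdm5a, Kdm5c, Kdm1a and Kdm1b; the Y-linked Kdm5d and Uty are left out. Kdm1b and Kdm1a lie near the top, Kdm5c in the middle and Kdm5a near the bottom of the list.

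The first question put to these genes was whether excess KDM5B changed their RNA. In zygotes, none of the 4 was called different (quasi-likelihood test of edgeR, adjusted p under 0.05 by Benjamini-Hochberg over 11933 genes), against a background of 0.134% of all genes tested. Kdm5a lay at 0.927, 1.55 and 2.29 TPM in the lowest, median and highest Kdm5b zygote, within the range of the controls but for 1 sample below it. Its log2 fold change was -0.10 (SE 0.20, 95% interval -0.50 to 0.30). Kdm5c lay at 18.4, 22.1 and 27.1 TPM, and its log2 fold change was 0.06 (SE 0.07, 95% interval -0.08 to 0.21). The ranges overlapped, with 1 sample above the highest control and 2 below the lowest.

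Kdm1a lay at 120, 130 and 144 TPM in Kdm5b zygotes, and 9 of the 10 values were below the mean of the controls, 143 TPM. That mean itself lay above the median of the controls, 137 TPM. The log2 fold change was -0.10 (SE 0.06, 95% interval -0.23 to 0.03, adjusted p = 0.629 with edgeR), and the groups overlapped. Kdm1b lay at 135, 185 and 283 TPM, with a log2 fold change of 0.01 (SE 0.11, 95% interval -0.22 to 0.23). The Kdm5b zygotes enclosed the range of the control zygotes for this gene. Adjusted p-values of the 4 genes ran from 0.629 to 0.993, and none of these 4 was called in any of the 20 fits that left out 1 zygote.

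In 2C samples again none of the 4 was called, against a background of 0.0245% of 12244 genes tested. Kdm5a lay at 2.48, 4.71 and 10.6 TPM in the lowest, median and highest Ctrl water 2C sample, and at 2.44, 3.08 and 9.49 TPM in Kdm5b 2C samples. The log2 fold change was -0.39 (SE 0.36, 95% interval -1.14 to 0.36, adjusted p = 0.812 with edgeR), so the interval reached from a fall of more than 1 to a rise on the log2 scale. Without Kdm5b 2C replicate 1, which had the 9.49 TPM, it was -0.81 (adjusted p = 0.470 with edgeR). Kdm5c lay at 15.8, 25.9 and 31.7 TPM in Ctrl water 2C samples and at 19.2, 25.2 and 26.4 TPM in Kdm5b 2C samples, inside the range of the controls. Its log2 fold change was -0.06 (SE 0.14, 95% interval -0.36 to 0.23).

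Kdm1b lay at 106, 194 and 257 TPM in Ctrl water 2C samples and at 120, 185 and 274 TPM in Kdm5b 2C samples. Its log2 fold change was 0.07 (SE 0.18, 95% interval -0.30 to 0.44), and the groups overlapped, with 2 injected samples above the highest control.

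Over all 15 samples, Kdm1a had the largest difference after injection at the 2C stage, but without Kdm5b 2C replicate 1 that of Kdm5a, -0.81, was larger. It lay at 54.9, 121 and 178 TPM in Ctrl water 2C samples and at 43.0, 65.2 and 116 TPM in Kdm5b 2C samples, with 5 of the 6 injected samples below the control mean of 106 TPM. The groups overlapped, and the log2 fold change was -0.48 (SE 0.25, 95% interval -1.01 to 0.05, p = 0.0714, adjusted p = 0.582 with edgeR). The controls themselves differed with their sequencing index numbers, which the library names give and which were grouped in runs of 8. The 3 Ctrl water 2C samples with indices 85 to 87 had 125, 142 and 178 TPM. The 6 Ctrl water 2C samples with indices 89 to 95 had 54.9, 61.7, 67.6, 80.7, 121 and 127 TPM, so that only the highest of them reached into the first range. All 3 pooled control tubes, with 54.9, 80.7 and 127 TPM, were in this second run and none in the first, so among the controls run and pooling were partly mixed. The labels do not call the index numbers a batch, and 2 of the 3 samples with indices 85 to 87 also had the fewest genes detected, 11841 and 12155 against at least 13855 in every other 2C sample.

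Of the injected 2C samples, 5 shared the run of indices 81 to 88 with those 3 controls, and had 56.9, 61.7, 68.6, 97.3 and 116 TPM, all below the lowest of the 3. Within this run the log2 fold change of Kdm1a was -0.83 (adjusted p = 0.114 with edgeR, an alternative chosen after seeing the data). With the run as a covariate over all 15 samples it was -0.87 (adjusted p = 0.0564 with edgeR). The only injected sample in the other run had 43.0 TPM, below all 6 controls there. Neither fit called Kdm1a, while the number of genes called among all genes rose from 3 to 253 with the covariate and to 111 within the run. Whether the difference in genes detected had a part in this was not tested. The share of all genes that separated injected samples from controls within a run was not counted.

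**Figure D3:**
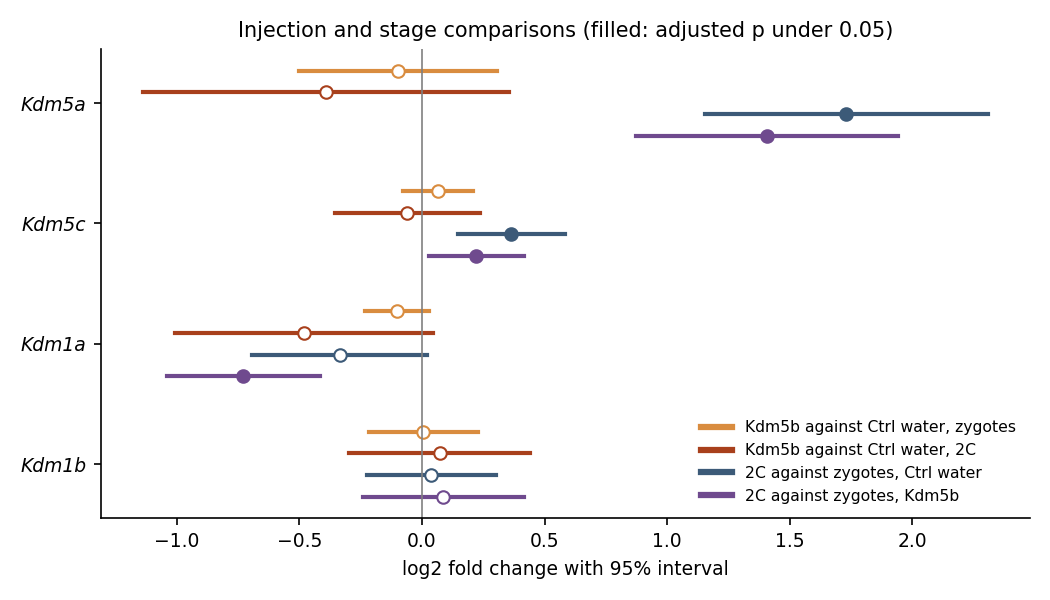
Log2 fold changes of the 4 genes in both injection comparisons and both stage comparisons, with 95% intervals from edgeR; filled circles have an adjusted p under 0.05. All 8 injection intervals include 0, with the Kdm1a interval in 2C samples reaching from -1.01 to 0.05, and the filled circles are the stage comparisons of Kdm5a and Kdm5c and that of Kdm1a in Kdm5b embryos.

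The injected samples differed in the share of their gene counts that fell on Kdm5b, and member levels were set against this share. It is not scaled to anything outside the library. More injected mRNA and less RNA of the embryo itself therefore cannot be told apart in it. Across the 10 Kdm5b zygotes no member had a slope on the log2 Kdm5b share that was called, and 0 of 10273 genes were (background 0%), with 369 at an unadjusted p under 0.05 in edgeR's quasi-likelihood test. Kdm5a had a slope of -0.45 per doubling of the Kdm5b share (SE 0.19, p = 0.0286, adjusted p = 0.999 with edgeR). The zygote with the highest share, 10.4%, had the lowest Kdm5a level, 0.927 TPM, while the zygote with the lowest share, 2.30%, had 2.18 TPM. The slopes of Kdm5c, Kdm1a and Kdm1b lay between -0.08 and 0.05.

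Across the 6 Kdm5b 2C samples again 0 of 9499 genes were called (background 0%), with 743 at an unadjusted p under 0.05. Kdm1b had 274, 173, 260, 198, 120 and 139 TPM in the samples ordered by rising Kdm5b share, from 8.27% to 15.8%. The 2 samples with the highest shares, 15.6% and 15.8%, had its lowest levels. The slope was -0.91 per doubling (SE 0.24, 95% interval -1.43 to -0.39, p = 0.00216, adjusted p = 0.436 with edgeR), and 1 of these samples was the pool of 3 blastomeres. Kdm1a had a slope of -0.53 (SE 0.38), Kdm5a of 0.32 (SE 0.75) and Kdm5c of -0.03 (SE 0.25).

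**Figure D4:**
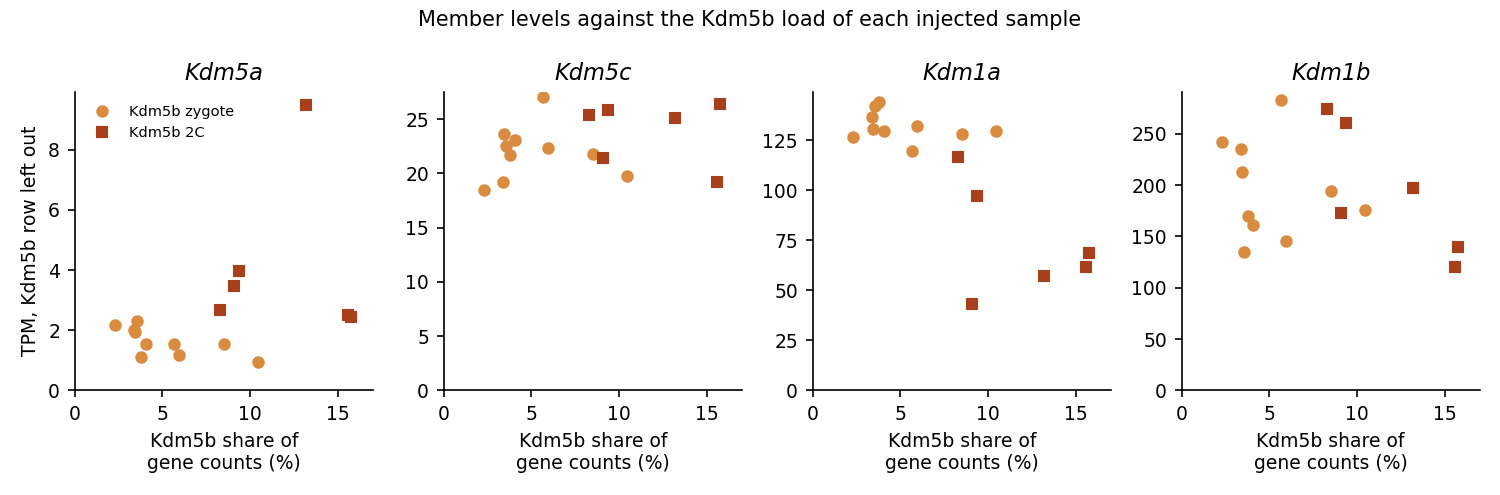
TPM of each gene against the share of gene counts that fell on Kdm5b, in percent, in the 10 Kdm5b zygotes (circles) and 6 Kdm5b 2C samples (squares), with axes from 0. Kdm1b in 2C samples runs from 274 TPM at 8.27% to 139 TPM at 15.8%, and Kdm5a in 2C samples has a single high point of 9.49 TPM.

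The second question was how the genes moved from zygote to early 2C. Both JmjC genes rose. In Ctrl water embryos Kdm5a rose from 1.75 ± 0.623 TPM (SD, n = 10) to 5.49 ± 2.99 TPM (SD, n = 9), and 6 of the 9 samples lay above the highest zygote. The log2 fold change was 1.73 (SE 0.28, 95% interval 1.15 to 2.31, adjusted p = 1.11e-05 with edgeR). Kdm5c rose from 21.1 ± 2.02 to 25.6 ± 4.87 TPM, a log2 fold change of 0.36 (SE 0.11, 95% interval 0.14 to 0.58, adjusted p = 0.00568 with edgeR). Here 6 of the 9 samples lay above the highest zygote and 1 below the lowest. The background was 26.8% of 11968 genes called higher, and 9.2% called higher by more than 1 on the log2 scale, of which Kdm5a was 1.

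Neither flavin gene was called between these groups. Kdm1b had 196 ± 35.2 TPM in Ctrl water zygotes and 189 ± 44.6 TPM in Ctrl water 2C samples, with a log2 fold change of 0.04 (SE 0.13, 95% interval -0.23 to 0.30, adjusted p = 0.832 with edgeR). Kdm1a had 143 ± 17.8 and 106 ± 42.0 TPM, with 4 of the 9 samples below the lowest zygote and 1 above the highest. Its log2 fold change was -0.34 (SE 0.17, 95% interval -0.69 to 0.02, adjusted p = 0.109 with edgeR), against a background of 25.4% of genes called lower, and 13% called lower by more than 1. It passed the threshold without Ctrl water 2C replicate 3, the sample with 178 TPM (log2 fold change -0.47, adjusted p = 0.0184 with edgeR), and with limma's voom, without a filter on low counts and with the replicate number as a block.

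In Kdm5b embryos, which share no sample with the Ctrl water embryos, the background of genes called between the stages was 29.3% higher and 29.5% lower of 12390, and 10.5% and 16% beyond 1 on the log2 scale. Kdm5a went from 1.62 ± 0.469 TPM (SD, n = 10) to 4.10 ± 2.71 TPM (SD, n = 6), and all 6 samples lay above every zygote. The log2 fold change was 1.41 (SE 0.26, 95% interval 0.87 to 1.94, adjusted p = 5.35e-05 with edgeR). Kdm1a fell from 132 ± 7.24 to 73.98 ± 27.5 TPM, and all 6 samples lay below every zygote. Its log2 fold change was -0.73 (SE 0.15, 95% interval -1.04 to -0.42, adjusted p = 0.000203 with edgeR). The share of all genes that separated these groups fully was not counted. Whether full separation was particular to Kdm5a and Kdm1a was therefore not tested.

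Kdm5c had 22.0 ± 2.48 and 23.9 ± 2.91 TPM in Kdm5b zygotes and Kdm5b 2C samples, and no 2C sample lay outside the zygote range. Its log2 fold change of 0.22 (SE 0.09, 95% interval 0.03 to 0.42, adjusted p = 0.0449 with edgeR) was close to the threshold. The call was lost in 11 of the 16 fits that left out 1 sample, 7 of them a Kdm5b zygote (replicates 1, 2, 3, 4, 7, 9 and 10) and 4 a Kdm5b 2C sample (replicates 1, 2, 3 and 4), with an adjusted p of up to 0.124 (edgeR). Kdm1b had 195 ± 47.3 and 194 ± 62.9 TPM and a log2 fold change of 0.09 (SE 0.16, 95% interval -0.24 to 0.41).

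Whether the change between stages differed with injection was tested as an interaction over all 35 samples. The mean Kdm5b share of gene counts was 5.11% in Kdm5b zygotes and 11.9% in Kdm5b 2C samples. Stage and Kdm5b load are therefore mixed in this test and in the stage comparison of Kdm5b embryos. No member was called, against a background of 0.109% of 13778 genes. The difference in log2 fold change was -0.38 for Kdm1a (SE 0.25, 95% interval -0.88 to 0.12, adjusted p = 0.683 with edgeR), -0.30 for Kdm5a (SE 0.40), -0.13 for Kdm5c (SE 0.14) and 0.07 for Kdm1b (SE 0.21). That Kdm1a passed the threshold between the stages in Kdm5b embryos and missed it in controls was thus not a called difference between them.

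Ratios within a sample do not depend on its depth or on what else it holds. They were taken on counts, not per length, of Kdm1a to Kdm1b and of Kdm5c to Kdm5a. Kdm5b was left out, so the latter ratio is not the balance of the whole KDM5 family. The counts of Kdm1a were 0.347 to 0.545 times those of Kdm1b in Ctrl water zygotes (median 0.443), 0.256 to 0.638 in Kdm5b zygotes (median 0.422), 0.199 to 0.512 in Ctrl water 2C samples (median 0.348) and 0.151 to 0.311 in Kdm5b 2C samples (median 0.241). Between the stages the log2 ratio dropped by 0.45 in Ctrl water embryos (exact permutation test, two-sided, p = 0.0207, adjusted p = 0.0413) and by 0.87 in Kdm5b embryos (exact permutation test, p = 0.0015, adjusted p = 0.00599), where the highest 2C ratio, 0.311, lay above the lowest zygote ratio, 0.256. With single intact embryos only, the drop in Ctrl water embryos was 0.38 (log2 difference -0.38, adjusted p = 0.0599, exact permutation test) and was no longer past the threshold. At the 2C stage the ratio was lower after Kdm5b injection by -0.51 in log2 (exact permutation test, p = 0.0635, adjusted p = 0.102), and in zygotes the difference was -0.09 (permutation test, adjusted p = 0.565).

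The counts of Kdm5c were 6.41 to 19.2 times those of Kdm5a in Ctrl water zygotes (median 12.8) and 2.80 to 8.53 times in Ctrl water 2C samples (median 5.62). The log2 ratio dropped by 1.27 (exact permutation test, two-sided, p = 0.00013, adjusted p = 0.00104). In Kdm5b embryos it was 8.43 to 21.0 in zygotes (median 14.5) and 2.65 to 10.8 in 2C samples (median 7.03), a drop of the log2 ratio by 1.08 (exact permutation test, p = 0.00225, adjusted p = 0.00599). Injection moved this ratio by 0.14 in zygotes (permutation test, adjusted p = 0.565) and by 0.33 in 2C samples (exact permutation test, adjusted p = 0.453). The p-values of both ratios were adjusted over the 8 tests together.

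**Figure D5:**
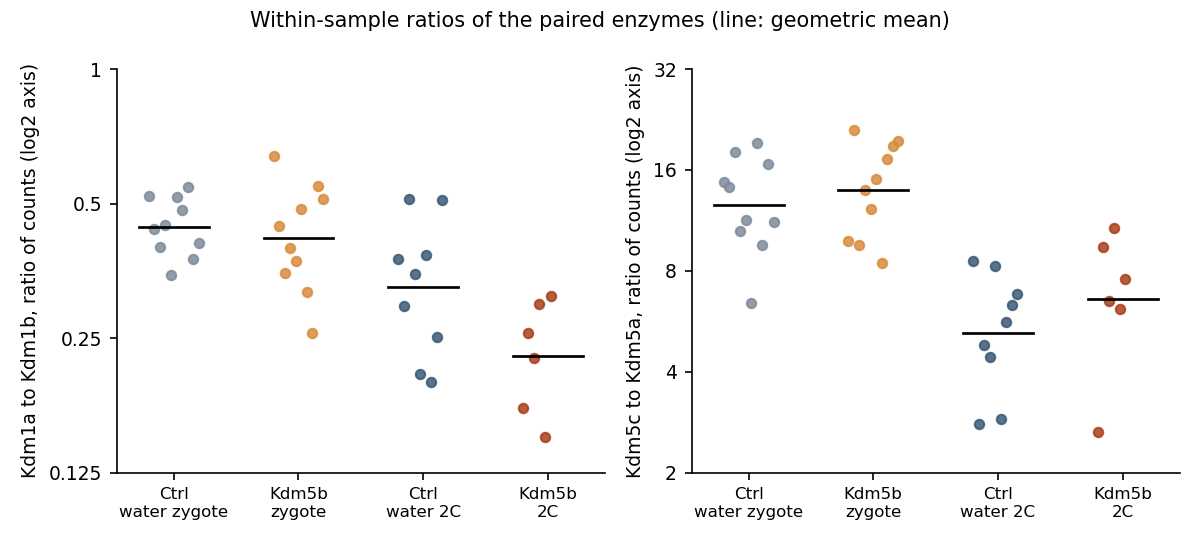
Ratio of counts of Kdm1a to Kdm1b (left) and of Kdm5c to Kdm5a (right) in each of the 35 samples, with 1 count added to each, on log2 axes; lines mark the geometric mean of each group. Both ratios sit lower in 2C samples than in zygotes, and the lowest Kdm1a to Kdm1b ratios, down to 0.151, are in Kdm5b 2C samples.

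As shares of the summed TPM of the 4 genes, Kdm1b held 53.9% ± 3.46 in Ctrl water zygotes (SD, n = 10) and 58.2% ± 7.60 in Ctrl water 2C samples (SD, n = 9), and Kdm1a 39.6% ± 3.41 and 31.7% ± 7.13. Kdm5a held 0.496% ± 0.199 in zygotes and 1.79% ± 1.28 in 2C samples. Kdm5c held 5.91% ± 0.629 and 8.24% ± 2.73, so the JmjC genes together were the small part of this RNA at both stages.

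The genes also differed in how much samples of the same group varied. In Ctrl water zygotes the coefficient of variation of TPM was 9.54% for Kdm5c, 12.5% for Kdm1a, 18.0% for Kdm1b and 35.5% for Kdm5a. Counting of reads alone gives 2.91%, 2.13%, 1.42% and 10.2%, which leaves out capture and amplification of the RNA before sequencing. Differences between embryos and between library preparations cannot be told apart here. In Ctrl water 2C samples, pooled tubes included, it was 19.0%, 39.5%, 23.6% and 54.4% in the same order. Over the single intact embryos of this group it was 14.5%, 38.4%, 26.1% and 50.9%. The highest Ctrl water 2C sample had 4.26 times the Kdm5a level of the lowest and 3.24 times its Kdm1a level.

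Across the 9 Ctrl water 2C samples Kdm5a tended to be higher where Kdm5b, not injected here, was high. The 3 samples with the most Kdm5b, 88.2, 72.6 and 35.4 TPM, had 10.6, 6.60 and 9.29 TPM of Kdm5a. Replicate 3, with 29.1 TPM of Kdm5b, had 6.63 TPM of Kdm5a. The 3 pooled tubes had 16.5, 18.2 and 17.9 TPM of Kdm5b and 4.71, 2.48 and 3.72 TPM of Kdm5a. Pooling is thus mixed into this relation. Pearson's r of the log2 TPM values was 0.77 (exact permutation test, p = 0.0146, adjusted p = 0.0583 over the 4 genes, n = 9) and Spearman's rho 0.75 (exact permutation test, p = 0.0255, adjusted p = 0.102). Without the 2 samples farthest from the median of Kdm5b, r was 0.72. Kdm5c had r = 0.57, Kdm1a -0.01 and Kdm1b -0.31 (exact permutation test, adjusted p = 0.224 to 0.978, n = 9). This relation was looked for after seeing the data, and none of the 4 passed the adjustment.

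The proteins that work with these enzymes were taken as a list of 18 partner genes, all tested. They include the CoREST subunits and histone deacetylases that bind KDM1A, the nucleosome-binding cofactor of KDM1B encoded by Glyr1, and the Sin3 and associated subunits found with KDM5A. After injection 0 of 18 were called in zygotes and 0 of 18 in 2C samples (quasi-likelihood test of edgeR, Benjamini-Hochberg), and their median log2 fold changes were 0.02 and 0.05, beside 0.0097 and -0.0028 over all genes. Between Ctrl water zygotes and 2C samples 8 rose and 3 fell, beside 26.8% and 25.4% of all genes, with a median of 0.18 beside 0.02 over all genes. Hdac1 rose by 2.18 (SE 0.28, adjusted p = 3.46e-07 with edgeR) and Rcor2, a CoREST paralog, by 1.16 (SE 0.13). Sin3a, a deacetylase scaffold, rose by 0.51 (SE 0.08).

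Glyr1 fell by 1.36 on the log2 scale between Ctrl water zygotes and 2C samples (SE 0.12, adjusted p = 1.17e-09 with edgeR), from a median of 168 to 53.9 TPM, while Kdm1b had nearly equal means. Gse1, a gene for a protein of KDM1A complexes, fell by 0.60. In Kdm5b embryos 8 partners rose and 6 fell, beside 29.3% and 29.5% of all genes, with a median of 0.15 beside 0.01 over all genes. Glyr1 fell by 1.72 (SE 0.10), and Hdac1 rose by 2.45 (SE 0.25).

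Of the other demethylases, 15 of 20 listed genes were tested in zygotes and 16 in 2C samples, and 0 were called after injection at either stage, with medians of -0.06 and -0.08. Between the Ctrl water stages 5 of 15 rose and 4 fell, with a median of -0.01, where 26.8% of all genes were called higher and 25.4% lower. Kdm3a, an H3K9 demethylase gene, rose by 1.88 (SE 0.22), Kdm4c by 2.20 (SE 0.50) and Kdm7a by 0.54 (SE 0.08), while Jmjd6 stood at -0.86, Kdm2b at -0.64 and Jmjd1c at -0.42. In Kdm5b embryos, where 29.3% of all genes were called higher and 29.5% lower, 6 of 15 rose, of which Kdm3a, Kdm7a and Kdm2a had the smallest p, at 1.46, 0.67 and 0.43, and 4 fell, among them Kdm2b at -0.95, Jmjd6 at -0.88 and Kdm4a at -0.38, with a median of -0.07.

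The opposing enzymes were taken as 20 genes for H3K4 methyltransferases and their subunits. None of the 19 tested in zygotes or the 19 in 2C samples was called after injection, with medians of 0.03 and 0.12. Between the Ctrl water stages 10 of 19 rose and 4 fell (all genes: 26.8% and 25.4%), with a median of 0.33. Kmt2c, which methylates H3K4 at enhancers, rose by 0.68 (SE 0.06), its cofactor gene Ncoa6 by 0.85 (SE 0.08) and Hcfc1 by 0.60 (SE 0.09). Smyd3 fell by 1.41 (SE 0.21). The core subunit gene Rbbp5 fell by 1.11 and the CpG-binding subunit gene Cxxc1 fell by 0.90. In Kdm5b embryos 10 rose and 6 fell (all genes: 29.3% and 29.5%), with a median of 0.35. Those with the smallest p were Kmt2c at 0.88, Kmt2d at 0.75 and Ncoa6 at 1.04, and, among those that fell, Rbbp5 at -1.37, Smyd3 at -1.36 and the core subunit gene Ash2l at -0.83.

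Of the stage markers, all 7 tested 2C genes rose in both stage comparisons, by 9.75 for Gm5662, 7.20 for Zscan4a and 7.83 for Gm8300 in Ctrl water embryos, and by 8.69 for Gm8300, 3.97 for Usp17lc and 9.70 for Gm5662 in Kdm5b embryos. Of the 11 oocyte genes 8 fell between Ctrl water stages, with the smallest p for Ooep, Padi6 and Khdc3 at -1.81, -1.81 and -1.84, and 1 rose, Btg4 by 0.40. In Kdm5b embryos 7 fell, with the smallest p for Padi6, Nlrp5 and Ooep at -1.74, -1.75 and -1.74, and 2 rose, Btg4 by 0.40 and Zp1 by 0.34. Of the cumulus markers 3 were tested, and 0 were called between Ctrl water stages; in Kdm5b embryos Kitl rose by 1.06 and Cyp19a1 fell by 0.87. None of the markers was called after injection at either stage. The 2C genes had a median log2 fold change after injection of -0.24 in zygotes (4 tested) and -0.63 in 2C samples (8 tested), beside 0.0097 and -0.0028 over all genes. Their sum was 417 ± 190 CPM in Ctrl water 2C samples (SD, n = 9) and 297 ± 126 CPM in Kdm5b 2C samples (SD, n = 6). Whether this bears on the injection comparisons of the members was not tested.

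The genes whose pattern over all 35 samples was most like each member were found by Pearson's r of log2 CPM among 13774 other genes, as a description. Kdm1a was most like Nlrp4a (r = 0.92), Ptpn21 (r = 0.92) and Fbxo43 (r = 0.91), and with group means removed the r values were 0.87, 0.88 and 0.88. Kdm5a was most like Smarca5-ps (r = 0.89), Ppp1r8 (r = 0.87) and D030056L22Rik (r = 0.87), all higher on average in both 2C groups. Smarca5-ps is annotated as a pseudogene, and its counts may hold fragments of its parent gene. For Kdm5c the nearest were Zfp949 (r = 0.76), Rab19 (r = 0.76) and Khdrbs1 (r = 0.74), and for Kdm1b Pabpc4 (r = 0.69), Cgn (r = 0.66) and Sec13 (r = 0.65). Rab19 had very low counts, with a mean log2 CPM of -2.52 in Ctrl water zygotes and -2.66 in Kdm5b zygotes. In Ctrl water 2C and Kdm5b 2C samples it had 0.21 and -1.02. All samples of a stage share the library day, which enters these values.

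Among the members themselves, the 35 samples gave r = 0.63 for Kdm5a with Kdm5c, and 0.35 with group means removed. Kdm1a with Kdm1b had r = 0.31, and 0.45 with group means removed. Within groups the latter pair ran from -0.62 in Kdm5b zygotes to 0.66 in Kdm5b 2C samples.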

How the data were processed

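RNA of single or pooled embryos was sequenced in paired reads of 100 bases after the SMART-Seq Stranded protocol. The authors trimmed reads with fastp 0.21.0 (8 bases at the front, 1 at the tail), aligned them to GRCm38 with STAR 2.7.3a (at most 5 mismatches) and counted fragments per RefSeq gene with featureCounts 1.5.1, and the deposited counts are not normalized. Deposited counts of repeats were not used here. Counts of the injected mRNA and of the embryo's own Kdm5b fall on the same row, so the Kdm5b row was removed first. TPM was computed from counts and deposited exon lengths. The groups of a comparison were fitted by themselves, and the interaction over all 35 samples, using edgeR 4.0.16 under R 4.3.3 (TMM, filterByExpr with a minimum count of 10, quasi-likelihood test, Benjamini-Hochberg adjustment over all genes tested, called at an adjusted p under 0.05). Intervals are 95% intervals on the log2 scale. Slopes used the log2 Kdm5b share. Orders of levels were tested by sign flips of within-sample differences, and ratios of counts (pseudocount 1) by permutation in scipy 1.17.1, exact where a group had fewer than 10 samples. The edgeR comparisons of injection and of stage, the permutation test between groups and the window search were tested on simulated data. The sign-flip test, the correlation test, the interaction and the slopes were not. Windows were compared on GENCODE transcripts of GRCm38. Alternatives used DESeq2 1.42.0 and limma 3.58.1. Genes named are the 4 members, up to 3 called genes in each direction per list and comparison with the smallest p, and the 3 genes most like each member. A result that this rule would name is not reported here. The members and lists were chosen with earlier results of these data known. The lists were 18 partners, 20 other demethylases, 20 H3K4 methyltransferase genes, and markers of cumulus cells, oocytes and the 2C stage. Depth was 8705584 to 17797581 counts per sample, where the least counted member, Kdm5a, had 43 to 417 counts. No 2 samples of the same group agreed within sampling noise, and pairs from different groups were not compared.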

Additional observations from a re-analysis of the deposited data

Results flagged for a closer look

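The highest Kdm5a level among Ctrl water zygotes, 3.12 TPM in replicate 6, stood apart from the next, 2.13 TPM, by Dixon's criterion. Leaving this zygote out moved the log2 fold change of Kdm5a after injection from -0.10 to 0.03, and it remained short of the threshold. The highest Kdm5a level among Kdm5b 2C samples, 9.49 TPM in replicate 1, stood apart from the next, 3.98 TPM, in the same way. Without it the rise of Kdm5a between Kdm5b stages was 1.01 on the log2 scale in place of 1.41, and it was still called. The log2 fold change after injection in 2C samples was -0.81 in place of -0.39, and it was not called either way. Of 16 combinations of gene and group 2 were picked out in this way, and about 1 in 20 is expected by chance.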

How the results depend on the processing

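No count of members called moved by more than 1.5 times under any alternative. With so few members, that limit does not register 1 call gained or lost between the stages. Calls of Kdm1a and Kdm5c did change there, as given below. The order of levels held for 12 of 12 neighbour pairs per length and 10 of 12 without length. The drop of the Kdm1a to Kdm1b ratio between Ctrl water stages fell short of the threshold with single intact embryos only (-0.38, adjusted p = 0.0599, exact permutation test). With single intact embryos the steps between neighbours in Kdm5b 2C samples had p = 0.0625, the smallest that 5 samples allow. The sign turned, always far from any call, for Kdm1b in zygotes with the Kdm5b row kept (-0.0023), 1 fit of all 35 samples (-0.0060), the replicate block (-0.010) and the index run as a covariate (-0.0032). It also turned for Kdm1b in 2C samples with the index run as a covariate (-0.10) or within 1 run (-0.17), for Kdm5c in 2C samples with limma's voom (0.0245), for Kdm1b between Ctrl water stages with no filter (-0.0551), and for Kdm1a against Kdm5c in Kdm5b 2C samples without length (-0.31). The cause was not tested. Fits that left out 1 sample ran from -0.0689 to 0.0618 for Kdm1b and from -0.165 to 0.0281 for Kdm5a after injection in zygotes, from -0.0596 to 0.157 for Kdm1b after injection in 2C samples, and from -0.0283 to 0.115 and -0.0537 to 0.170 for Kdm1b between the Ctrl water and between the Kdm5b stages. Kdm1a between Ctrl water stages passed the threshold with limma's voom (-0.50, adjusted p = 0.00451), with no filter (-0.43, adjusted p = 0.0363) and with the replicate block (-0.45, adjusted p = 0.0229). Kdm5c between Kdm5b stages lost its call with voom (adjusted p = 0.0715), no filter (0.231), 1 fit of all samples (0.0978) and the replicate block (0.104).

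Replicate numbers are shared between groups in the labels, but each marks a separate tube, with a single embryo or pooled blastomeres. Deviations of same-numbered samples correlated at -0.18 to 0.10, so the numbers did not pair the samples, and with the replicate block members called were 0 and 0 after injection, 3 between Ctrl water stages and 2 between Kdm5b stages, where 5586 of 11868 and 6173 of 11850 genes were called in the same fits. The counting error of reads was largest for Kdm5a among the members, at 10.2% in control zygotes.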
